A study of Mus musculus with 4 samples.

Results

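The comparison set lungs taken whole from mice of the inbred strain C57BL/6J 6 h after an aerosol of hexamethylene diisocyanate (HDI) at 10 mg per cubic metre beside lungs from unexposed mice of that strain. HDI is a reactive hardener of polyurethane paints whose isocyanate groups bind to thiols and amines of proteins and of glutathione, and inhaled it irritates the airways and can sensitise them. Each group was 1 pool of total RNA read on 1 oligonucleotide array, so 2 of the 4 arrays of the study enter the comparison, and 2 further pools, at 18 and 90 h, are given only where a level is followed. The unexposed pool carries 0 h in its title. How many mice made up a pool, their age and sex, how long they were exposed and at which hour lungs were taken is not given in the sources used here. Whether the unexposed mice breathed a control aerosol is not given either. Without replicates there is no spread between animals or arrays to set a difference against, so no p-value is given anywhere, and each fold describes these 2 arrays. The comparison asks which transcripts of the lung stood apart early after exposure.

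Values are scaled intensities, in array units, of the probe set of each gene with the highest mean over the 4 arrays, called its main probe set below. A probe set is the group of probes that reads 1 transcript. Of 8251 genes with a named probe set, 6044 lay above the floor of 77.7 units in at least 1 of the 2 pools and could be compared. A gene at or under the floor in 1 pool is given a lower limit of its fold with the words at least, and a gene at or under it in both has no fold.

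At 6 h 131 genes, 2.17% of those compared, were at least 2-fold higher than in the unexposed pool, and 91, or 1.51%, at least 2-fold lower. The median log2 difference over all genes was -0.04, and the central 90% lay between -0.62 and 0.70. Higher genes were also further apart: 43 genes were at least 3-fold higher and 14 at least 3-fold lower, and at 5-fold the counts were 13 and 3. Among genes above the floor in both pools, the brightest of 5 equal groups held 33 higher and 9 lower genes, while the middle one held 16 and 27, so that the balance of the directions differed with the level. Where a gene past 2-fold by its main probe set had another one above the floor in both pools, that probe set had the same sign for 20 of 26 higher and 9 of 11 lower genes, and passed 2-fold for 12 and 3 of them. Over 749 genes with such pairs, the robust SD of a probe set's log2 difference was 0.25, which is a measure of probe disagreement only.

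**Figure D1:**
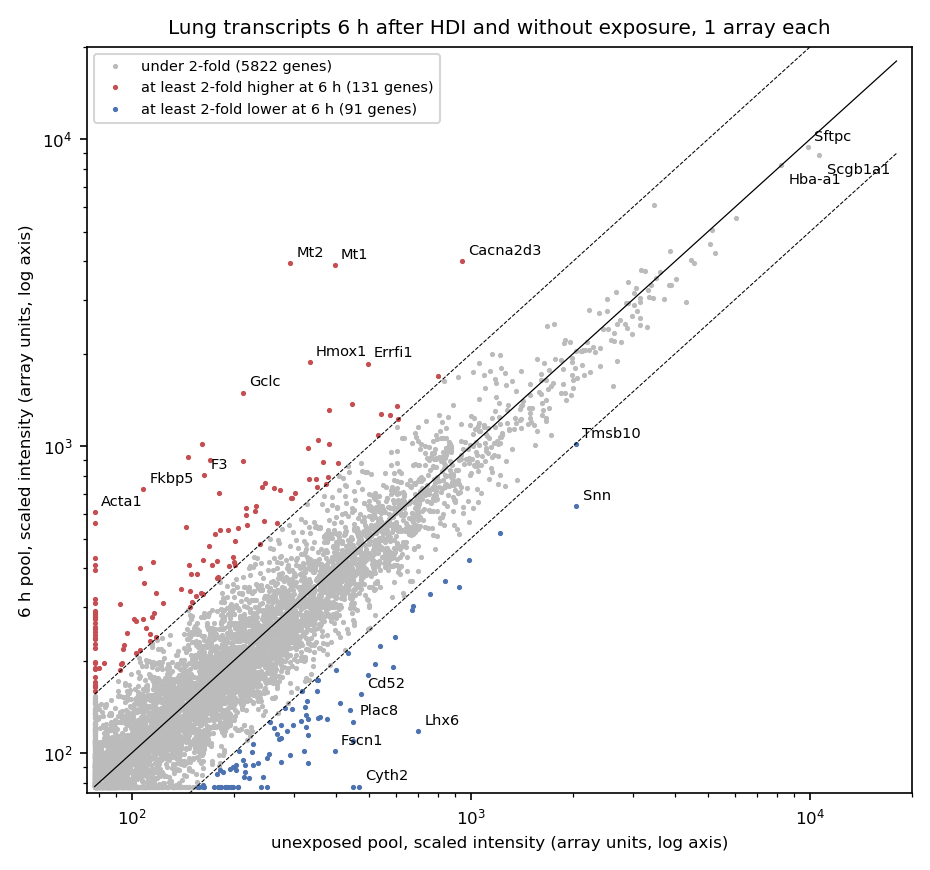
Scaled intensity of each of the 6044 genes compared in the unexposed pool (x axis) and the 6 h pool (y axis), in array units on log axes, values under the floor drawn at the floor. Dashed lines mark 2-fold; 131 genes (red) lie above the band and 91 (blue) below it, and in the brightest of 5 equal groups 33 lie above and 9 below.

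The tissue carried the transcripts that define lung in both pools. Sftpc, the surfactant protein of type II alveolar cells, read 9874 units in the unexposed pool and 9435 at 6 h. Scgb1a1, the secretory protein of club cells, read 10634 and 8907. Ager, a receptor abundant on type I alveolar cells, read 4447 and 4039.9, and Cdh5, the cadherin of endothelial junctions, 1425 and 1399. Of 7 type II and 7 type I cell markers compared, none was past 2-fold in either direction, with medians of -0.09 and -0.06. Of 10 club cell markers, 1 was at least 2-fold lower, Cckar, the cholecystokinin A receptor gene, at 276 and 112 units. Among the sex-linked genes Xist, Kdm5d and Uty were at or under the floor in both pools, so the arrays do not show which sexes were pooled.

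Cells meet reactive chemicals with a small number of switches that act within hours. Electrophiles modify the sensor KEAP1 and release the transcription factor NRF2, which raises the enzymes of glutathione and thioredoxin supply. Free zinc activates MTF1, which drives the metallothioneins, and misfolded protein activates HSF1, which drives the heat shock proteins. The integrated stress response slows general translation and lets ATF4 be made. Corticosterone, released under stress, acts in the lung through the glucocorticoid receptor.

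Metallothioneins are small cysteine-rich proteins that hold zinc and copper, and 2 of their genes had the largest differences among the genes above the floor in both pools. Mt2 read 293 units in the unexposed pool and 3956 at 6 h, and Mt1 396 and 3892, which is 13.5-fold and 9.82-fold. The 2 other members of the same gene cluster on chromosome 8 did not share this: Mt3, the brain form, read 428 and 429, and Mt4, the form of stratified epithelia, 89.8 and 113. Slc30a1, the zinc exporter of the plasma membrane and like the metallothioneins a target of MTF1, was under the floor in the unexposed pool and at 124 units at 6 h (at least 1.59-fold higher). The other zinc transporters of these families compared lay between -0.53 for Slc39a3 and 0.29 for Slc39a7 on the log2 scale.

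The promoters of these 2 genes are shown for their metal response cores, the letters that MTF1 binds. They are the 250 bases before the start site, from RefSeq on GRCm38.p6, 5′ to 3′ on the gene's strand, and capitals mark TGCACNC or TGCGCNC on either strand. The Mt1 promoter lies at chr8:94178839-94179088 (+) and holds 1 match, and the Mt2 promoter at chr8:94172368-94172617 (+) holds 3. These counts hold for the bases printed and the RefSeq start used. Sites elsewhere near either gene were not counted, so the 2 genes cannot be ranked by them.
Mt1: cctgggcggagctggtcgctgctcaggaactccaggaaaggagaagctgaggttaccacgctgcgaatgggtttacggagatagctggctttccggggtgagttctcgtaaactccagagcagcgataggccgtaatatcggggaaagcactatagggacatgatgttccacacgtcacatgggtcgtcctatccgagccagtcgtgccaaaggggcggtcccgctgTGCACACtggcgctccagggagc
Mt2: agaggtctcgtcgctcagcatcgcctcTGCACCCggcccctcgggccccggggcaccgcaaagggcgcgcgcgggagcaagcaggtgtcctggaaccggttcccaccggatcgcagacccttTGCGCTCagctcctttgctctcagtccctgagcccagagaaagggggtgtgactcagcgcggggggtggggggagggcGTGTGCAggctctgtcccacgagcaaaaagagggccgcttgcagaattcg

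Of 24 genes of glutathione and thiol redox compared, 5 were at least 2-fold higher and none was lower by that much, and the list's median was 0.09, so that the difference sat in few members. They were the genes that make and recycle the cell's reducing thiols. Gclc, the catalytic subunit of glutamate-cysteine ligase, which sets the pace of glutathione synthesis, read 213 and 1496 units (7.03-fold higher). Gclm, its modifier subunit, was under the floor without exposure and at 258 at 6 h (at least 3.32-fold higher). Gsr, which returns oxidised glutathione to its reduced form, read 148 and 409 (2.76-fold higher). Txnrd1, the cytosolic thioredoxin reductase, read 170.3 and 904 (5.31-fold higher), whereas Txnrd2, the mitochondrial one, read 135 and 78.6 (1.72-fold lower). Srxn1, which repairs over-oxidised peroxiredoxins, was at 395 at 6 h and under the floor without exposure (at least 5.08-fold higher).

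Of the enzymes that use these thiols Glrx, the glutaredoxin that frees proteins bound to glutathione, read 187 and 309 units (1.65-fold higher). The antioxidant enzymes named next did not pass 1.5-fold. Gpx1, Gpx3 and Gpx4, glutathione peroxidases, had log2 differences of 0.13, 0.16 and -0.05, the lung and gut form Gpx2 -0.44, and the peroxiredoxins Prdx3 and Prdx4 -0.12 and -0.22. Sod1, Sod2 and Sod3, the superoxide dismutases, lay at -0.24, 0.29 and -0.22, and Cat, catalase, at -0.27. Txn1, thioredoxin itself, was bright and even, at 1697 and 1764 units. None of 16 glutathione S-transferases was past 2-fold, and the highest, Gsta3, read 187 and 292 units (1.56-fold higher).

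Cystine and NADPH supply gave a mixed picture. Slc3a2, the heavy chain that several amino acid exchangers share, read 833 and 1634 units (1.96-fold higher), while Slc7a11, the cystine carrier proper, was at or under the floor in both pools. Pgd, an NADPH-forming enzyme of the pentose phosphate pathway, read 426 and 748 (1.76-fold higher), and Me1, malic enzyme, 181 and 254. Of 16 phase II and NADPH enzymes none passed 2-fold, and Cbr1, a carbonyl reductase, and Akr1b8, an aldo-keto reductase, read 132 and 78.4, and 256 and 171. Nqo1, a quinone reductase often used as a marker of NRF2, was under the floor without exposure and at 89.1 at 6 h, too near the floor to give a useful bound.

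Hmox1, which opens the heme ring and frees its iron, read 335 units without exposure and 1881 at 6 h (5.62-fold higher). It was the only one of 15 heme and iron genes past 2-fold. Bach1, the repressor of Hmox1, read 187 and 309.6 (1.66-fold higher), and Fth1, the ferritin heavy chain that stores iron, 3168 and 3740.2.

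Antioxidant response cores, TGACNNNGC on either strand, and AP-1 elements, TGANTCA, can overlap, as a run that starts with the second and ends in GC holds both when its variable base is C. The Gclm promoter, at chr3:122245307-122245556 (+), holds 1 antioxidant core, in capitals on the reverse strand. The Srxn1 promoter, at chr2:152105274-152105523 (+), holds 2 AP-1 elements, in capitals.
Gclm: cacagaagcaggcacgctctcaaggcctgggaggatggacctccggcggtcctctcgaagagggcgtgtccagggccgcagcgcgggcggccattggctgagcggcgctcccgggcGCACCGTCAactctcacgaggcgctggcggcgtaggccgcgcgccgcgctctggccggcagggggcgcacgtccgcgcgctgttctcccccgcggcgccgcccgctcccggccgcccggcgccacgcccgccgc
Srxn1: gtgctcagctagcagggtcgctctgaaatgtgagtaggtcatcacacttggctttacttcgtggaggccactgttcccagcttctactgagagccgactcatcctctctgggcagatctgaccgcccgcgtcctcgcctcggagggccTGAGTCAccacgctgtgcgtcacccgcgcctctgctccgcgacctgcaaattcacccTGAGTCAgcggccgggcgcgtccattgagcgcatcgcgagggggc

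Heat shock genes differed from member to member. The inducible Hsp70 genes led: Hspa1b read 147 units and 924 (6.3-fold higher), and Hspa1a, its neighbour with a nearly identical product, was under the floor without exposure and at 409.6 at 6 h (at least 5.27-fold higher). Probe sets of genes this alike may read both transcripts. Hspb8, a small heat shock protein that hands clients to autophagy, read 144 and 544 (3.78-fold higher), or 0.96 on the log2 scale averaged over its probe sets, and its partner Bag3 197 and 336 (1.7-fold higher). The Hsp40 co-chaperone Dnaja1 read 255 and 498 (1.95-fold higher), Dnajb1 102 and 135, and the large Hsp70 relative Hsph1 148 and 239.8. The members named next did not pass 2-fold. Hspa9, the mitochondrial Hsp70, read 186 and 320.0 (1.72-fold higher), Hspa8 read 838 and 953, and Hsp90aa1 1258 and 1736. The mitochondrial chaperonins Hspd1 and Hspe1 had log2 differences of 0.19 and -0.11. In all 4 of 27 genes were at least 2-fold higher and 1 lower (median 0.24). Dnajb9, the other one past 2-fold, a co-chaperone of the endoplasmic reticulum, read 201 and 410.2 (2.04-fold higher). The lower one, Hspa4, read 351 and 159.7 by its main probe set, but 0.34, 0.34 and 0.72 on the log2 scale by its other 3, the first of which was under the floor without exposure. None of 8 subunits of the cytosolic chaperonin CCT passed 2-fold.

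The promoters of both Hsp70 genes are shown because these neighbours differ by few letters there: 247 of 250 bases are the same. Capitals mark the heat shock element, searched as GAANNTTC or TTCNNGAA, which lies 104 bases before the start site in each. Hspa1a lies at chr17:34972157-34972406 (-) and Hspa1b at chr17:34959239-34959488 (-).
Hspa1a: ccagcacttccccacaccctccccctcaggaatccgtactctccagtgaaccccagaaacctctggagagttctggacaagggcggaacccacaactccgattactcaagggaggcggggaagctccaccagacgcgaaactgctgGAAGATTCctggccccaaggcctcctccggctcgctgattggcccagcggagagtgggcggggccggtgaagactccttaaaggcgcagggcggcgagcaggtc
Hspa1b: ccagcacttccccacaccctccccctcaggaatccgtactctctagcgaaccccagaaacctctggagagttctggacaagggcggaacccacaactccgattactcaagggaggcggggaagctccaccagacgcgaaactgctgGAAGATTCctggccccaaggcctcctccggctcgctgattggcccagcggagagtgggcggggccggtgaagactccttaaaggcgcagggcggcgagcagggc

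**Figure D2:**
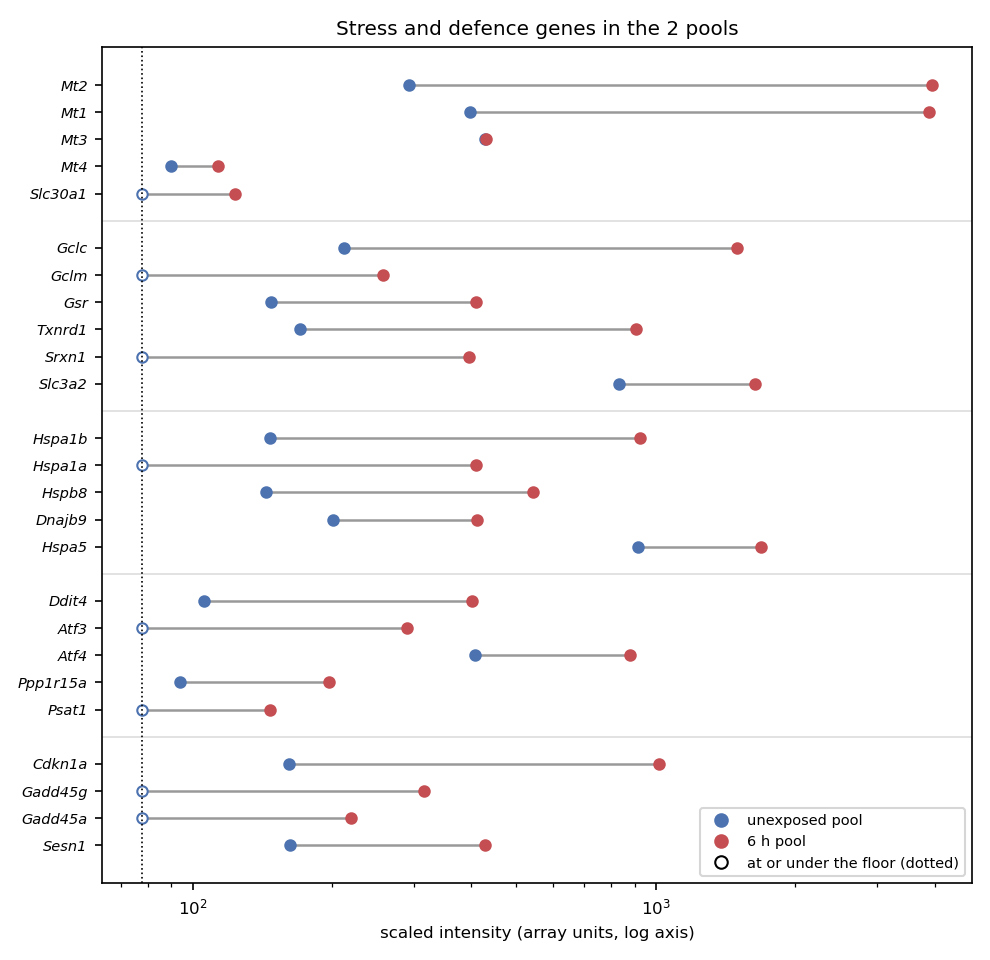
Scaled intensity in array units (log axis) of metallothionein and zinc, thiol, heat shock, integrated stress and growth arrest genes, from top to bottom, in the unexposed (blue) and 6 h (red) pools, 1 array each; open circles are at or under the dotted floor. Mt2 and Mt1 span the widest intervals, while Mt3 and Mt4 stay within 1.5-fold.

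The gene for ATF4 and several of its known targets were higher. Atf4 read 407 and 880.1 units (2.16-fold higher). Ddit4, an inhibitor of the growth kinase complex mTORC1, read 106 and 401 (3.79-fold higher), and Atf3, a repressor induced by many stresses, was under the floor without exposure and at 290.0 at 6 h (at least 3.73-fold higher), by a probe set that its name marks as open to cross-hybridisation. The other probe sets of Atf3 gave log2 differences of 0.10 and 0.37. Ppp1r15a, which lets translation resume, read 93.8 and 197 (2.1-fold higher), and its constitutive relative Ppp1r15b 158 and 230.4. Enzymes of serine and one-carbon supply were also higher but dim: Psat1 was at least 1.89-fold and Mthfd2 at least 1.79-fold higher, and Asns, asparagine synthetase, read 235 and 353 (1.5-fold higher). Trib3 was at or under the floor in both pools, and Ddit3, the death-linked factor CHOP, read 89.3 and 126. Of 17 genes 4 were at least 2-fold higher, and no member was lower by that much (median 0.50).

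Amino acid carriers and loading enzymes differed less. Slc1a4 and Slc38a2, carriers of small neutral amino acids, read 119 and 233, and 146 and 254 units, or 1.97-fold and 1.75-fold. Among 18 tRNA synthetases none passed 2-fold; Gars, Tars and Nars were 1.68-fold, 1.65-fold and 1.64-fold higher, and Sars 1.39-fold lower. Of 19 chaperones of the endoplasmic reticulum, 15 lay above 0 and none passed 2-fold, with Hspa5, the sensor-binding chaperone BiP, at 914 and 1683 (1.84-fold higher). Hsp90b1, which works beside it, read 1626 and 1381. Outside that list, Dnajb9, given above, was at least 2-fold higher, and the DnaJ gene Dnajc1 read 450 and 109 units (log2 difference -2.04). Over all genes compared 45.4% lay above 0.

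Of 27 translation factors 1 was at least 2-fold higher, 1 lower and 10 below 0 (median 0.27). The lower one, Eef1b2, a subunit of the elongation factor complex, read 215 and 86.9 units, with a log2 difference of -0.65 averaged over its probe sets. Eif1a, which helps the ribosome scan for a start codon, read 103 and 268 units (2.6-fold higher), and 1.42 was its log2 difference by the other probe set. Eif5, which triggers joining of the ribosome's parts, read 329.6 and 649 (1.97-fold higher), and Eif4ebp1, a brake on cap-dependent initiation, 107 and 192 (1.79-fold higher). Of 26 ribosomal protein genes compared, by contrast, 24 lay below 0, as did 54.6% of all genes, with a median of -0.20 and a range from -0.65 to 0.12, and none passed 2-fold. Among 40 respiratory chain genes 29 lay below 0 (median -0.15). Only Cox4i1 was past 2-fold, at 322 and 102 units, by a probe set marked for possible cross-hybridisation.

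Proteasome genes, which encode the cell's main protease for tagged proteins, were evenly a little higher. Of 34 subunits compared 31 lay above 0 and 9 were at least 1.5-fold higher, against 7.15% of all genes, but none reached 2-fold (median 0.38). Subunits of the regulatory cap led: Psmd11 read 408 and 796 units (1.95-fold higher), Psmd14, which strips ubiquitin off, 191 and 349.7 (1.83-fold higher), and the ATPase Psmc2 198 and 355 (1.79-fold higher). The interferon-induced subunits lay on the other side of 0, with Psmb8 at 411 and 239.6 (1.72-fold lower), Psmb10 at 487 and 328 (1.48-fold lower) and Psmb9 at least 1.71-fold lower. Sqstm1, a receptor that brings ubiquitin-tagged cargo to autophagy, read 802 and 1696 (2.12-fold higher).

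Growth arrest genes of several families were higher. Cdkn1a, the cyclin-dependent kinase inhibitor p21, read 161 and 1016 units (6.29-fold higher) by its main probe set and had a log2 difference of 0.59 by the other. Gadd45g and Gadd45a, which bind p21 and stress kinases, were under the floor without exposure and at 316 and 219 at 6 h, at least 4.07-fold and 2.82-fold higher, and Gadd45b read 299 and 525 (1.76-fold higher). Sesn1, a sestrin that restrains mTORC1, read 162 and 427 (2.63-fold higher). Fas, a death receptor, was at least 2.91-fold higher, by a probe set marked for possible cross-hybridisation. Not every p53 target did this: Ccng1 and Polk were at or under the floor in both pools, and Gas1, a membrane protein of arrested cells, read 156 and 97.3 (1.6-fold lower). In all 6 of 21 were at least 2-fold higher, and no member was lower by that much (median 0.23). Of 50 cell division genes on the array 22 were at or under the floor in both pools, and of the other 28 none passed 2-fold.

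Several genes that answer growth factor receptors were higher. A list of 16 genes of the EGF receptor and ERK response on the array was drawn up after the values were seen, so its counts only describe it: 8 of 15 compared were at least 2-fold higher (median 1.27). The ligand Hbegf read 218 and 554 units (2.54-fold higher). Errfi1, which shuts the EGF receptor off, read 496 and 1858 (3.75-fold higher), with a log2 difference of 2.17 by the other probe set. Dusp6, a phosphatase of ERK, read 325 and 565 (1.74-fold higher). Epha2, an ephrin receptor of epithelia, read 115 and 418 (3.63-fold higher), and Sphk1, which makes the lipid signal sphingosine 1-phosphate, was under the floor without exposure and at 284 at 6 h (at least 3.66-fold higher). Phlda1 read 202 and 492 (2.43-fold higher). The feedback inhibitor Spry4 did not share this, at 286 and 239.9.

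Of 15 immediate early transcription factors 5 were at least 2-fold and 7 at least 1.5-fold higher (median 0.36). Egr1 read 331 and 988 units (2.99-fold higher), Fos 182 and 534 (2.94-fold higher), and Junb 349.6 and 784 (2.24-fold higher), with 1.07 on the log2 scale by the other Junb probe set. Egr1 and Fos each had a further probe set at or under the floor in both pools, and averaged over both they stood at 0.79 and 0.78 on the log2 scale, short of 2-fold. Fosl1, an AP-1 partner of injured epithelium, was at least 2.41-fold higher. Ier3, which protects from cell death, read 1055 and 1870.3 (1.77-fold higher). Among 13 Kruppel-like and related zinc finger factors 7 were at least 1.5-fold higher. Klf6, which answers injury, read 333 and 781 (2.34-fold higher), and Klf4, Klf5, Klf7, Klf9 and Klf10 were 1.58-fold to 1.61-fold higher. Klf2, the factor of flow in endothelium, read 333 and 217 (1.54-fold lower). Zfp36, which degrades inflammatory messages, read 269 and 562 (2.09-fold higher), by a marked probe set.

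Genes induced by glucocorticoids had one of the highest medians among the lists. The list was chosen with earlier results of these data known, so its counts only describe it. Of 31 compared, 13 were at least 2-fold higher, none was lower by that much, 4 lay below 0, and 21 were at least 1.5-fold higher (median 0.91, against -0.04 over all genes). Fkbp5, a brake on the receptor itself, read 108 and 726 units (6.73-fold higher). Zbtb16, a zinc finger factor, read 213 and 891 (4.18-fold higher), and 1.04 on the log2 scale by its other probe set. Cebpd, a factor of the acute phase, read 446 and 1371 (3.07-fold higher), Sgk1, a kinase that keeps sodium channels at the surface, 545 and 1275 (2.34-fold higher), and Dusp1, a phosphatase of stress kinases, 1158 and 1995 (1.72-fold higher). Nfkbia, the inhibitor of NF-kappaB, read 606 and 1158 (1.91-fold higher), and Anxa1, an anti-inflammatory annexin, 1095 and 1705 (1.56-fold higher). Tsc22d3, a classic member, and the receptor gene Nr3c1 were at or under the floor in both pools. Several members answer other signals too: Mt1, Mt2, Cdkn1a and Ddit4 are described above.

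**Figure D3:**
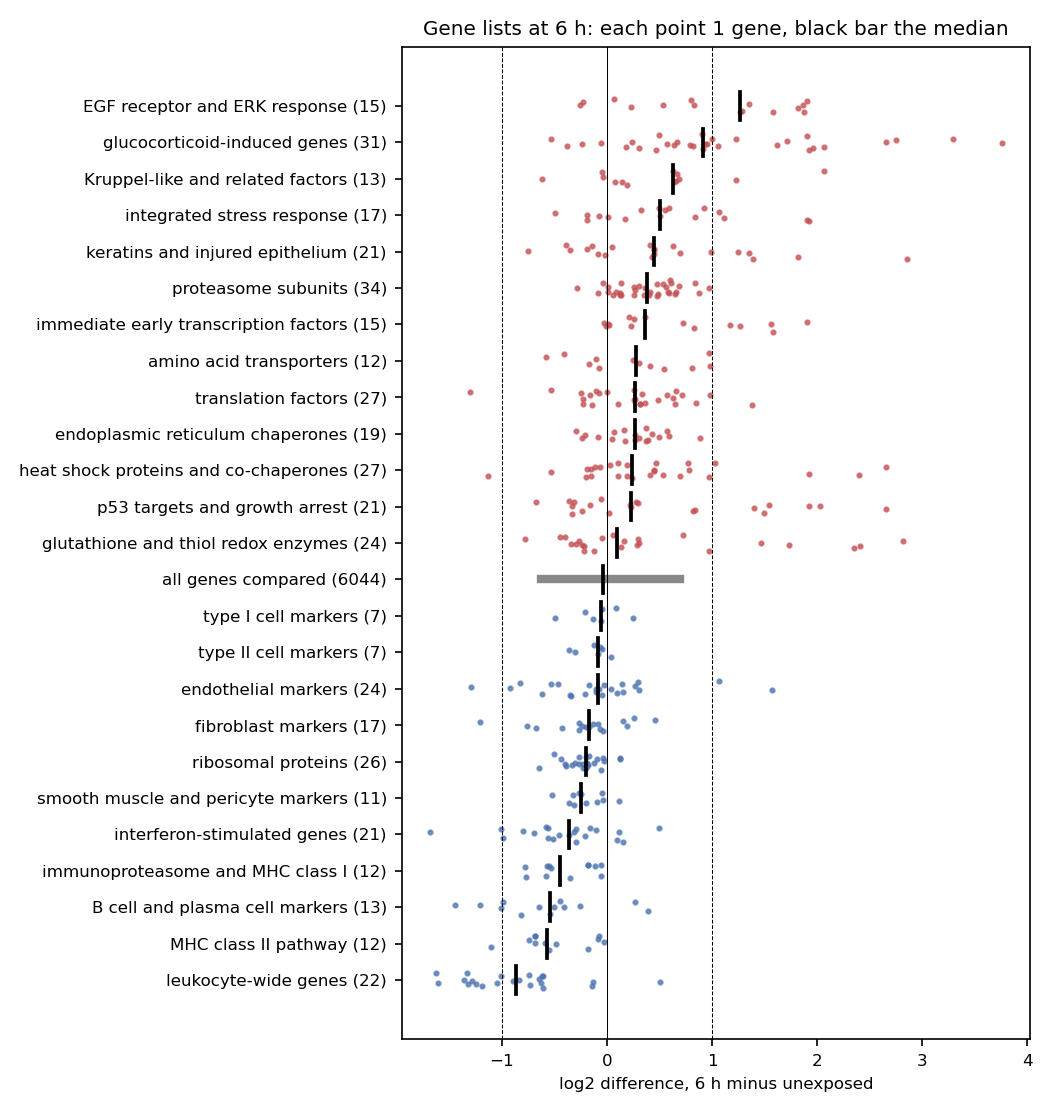
Log2 difference, 6 h minus unexposed (x axis), of the members of 24 gene lists, each point 1 gene and each black bar the list's median, with the number of genes compared in brackets; the grey bar spans the central 90% of all genes compared and dashed lines mark 2-fold. The median is 0.91 for the glucocorticoid-induced genes and -0.57 for the MHC class II pathway, while type I and type II cell markers lie at -0.06 and -0.09. The lists of the EGF receptor and ERK response (1.27) and of white blood cells in general (-0.87) were drawn up after the values were seen, so their place only restates that choice. The other lists were chosen with earlier results of these data known, so their places are a description too.

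Of 19 fat cell genes compared 3 were at least 2-fold higher and 1 lower (median 0.19). The lower one, Cd36, a fatty acid transporter, read 202 and 91.3 units by a marked probe set, and its log2 difference was 0.65 by the unmarked one, which was under the floor without exposure. Angptl4, which blocks lipoprotein lipase, read 181 and 702 units (3.88-fold higher) and had a log2 difference of 2.29 by its other probe set. Pnpla2, the first lipase of fat droplets, read 577 and 1260.0 (2.18-fold higher), and Plin2, a coat protein of droplets, 626 and 1062 (1.7-fold higher). Fabp4, a fatty acid carrier of fat and capillary endothelium, read 218 and 597 (2.74-fold higher). Outside this list Pdk4, which diverts muscle and other tissue from glucose to fat, was at least 3.27-fold higher, from under the floor to 254. Markers of fat tissue itself were dim: Adipoq, the fat cell hormone, read 83.9 and 145, Retn 86.7 and 149, and Ucp1, the uncoupler of brown fat, was under the floor and then at 141. The summed level of the 12 brown and white fat markers on the array was 1144 and 1859 units, with Fabp4 differing most among them. The part of fat tissue in these results was not tested.

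Of 18 clock genes 15 lay above 0, 6 were at least 1.5-fold higher and 2 at least 1.5-fold lower. Per1, which glucocorticoids also induce, read 179 and 373 units (2.08-fold higher), Cry1 114 and 221 (1.93-fold higher) and Cry2 84 and 143 (1.7-fold higher). Per2 was under the floor and then at 122. The output factor Dbp read 215 and 83.7 (2.57-fold lower) and the repressor Nr1d1 663 and 364 (1.82-fold lower). Since the hour of collection is not given, exposure and time of day cannot be told apart for these genes.

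The letters of 6 regulatory elements were counted in promoter windows of 300 bases, 250 before and 50 after each start site, over both strands and without a test. RefSeq windows were found for 104 of the 131 higher genes, 75 of the 91 lower ones and 4841 of all compared. The glucocorticoid response element was in 6 of 141 windows of higher genes, 4.26%, in none of 95 of lower genes, and in 0.272% of those of all genes compared. Those 6 windows belonged to Mt1, Sgk1, Serpina3n, Tinagl1, Map3k6 and Slc10a6. The heat shock element was in 18.4% of windows of higher genes, 14.7% of lower and 11.6% of all, and the antioxidant core in 18.4%, 10.5% and 14.1%. The AP-1 element was in 10.6%, 6.32% and 6.04%, and the C/EBP-ATF element, TGATGNAA, in 5, 1 and 135 windows. The metal response core is short and was common in all 3 sets, at 31.2%, 30.5% and 34.1%. In all 32851 RefSeq windows the shares were 0.475%, 15.1%, 12.4%, 7.81%, 3.97% and 25.7% in the order named.

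**Figure D4:**
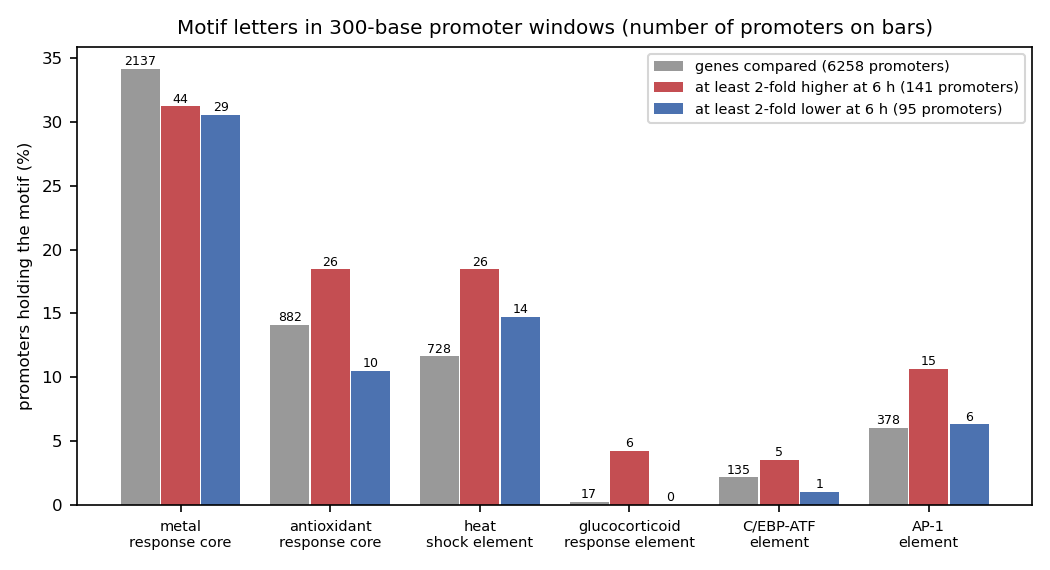
Share of 300-base promoter windows (y axis, %) that hold the letters of 6 elements, for genes compared (grey, 6258 windows), at least 2-fold higher (red, 141) and at least 2-fold lower at 6 h (blue, 95), with the number of windows on each bar. The glucocorticoid element stands at 4.26% among higher genes against 0.272% of all, with only 6 windows behind it, and the metal response core is in 34.1% of all, 31.2% of higher and 30.5% of lower windows.

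Most cytokines had no measurable level, while receptors and targets of the IL-6 family did. Of 36 interleukin and TNF family ligands on the array 23, among them Il1b, Il6 and Csf3, were at or under the floor in both pools, as were the chemokines Ccl2, Ccl3, Ccl7 and Cxcl2. Osmr, the oncostatin M receptor, read 182 and 362 units (1.99-fold higher), and Socs3, the feedback inhibitor of STAT3, 169 and 474 (2.81-fold higher), with 1.72 on the log2 scale by its other probe set. Pim3, a survival kinase, read 179 and 421 (2.36-fold higher), Il4ra, the receptor chain for IL-4 and IL-13, 217 and 627 (2.89-fold higher), and Stat3, the factor itself, 339 and 423. Averaged over its probe sets Il4ra was at 0.76 on the log2 scale, short of 2-fold. The acute phase genes Lrg1 and Serpina3n read 248 and 759.7, and 262 and 733 (3.06-fold and 2.8-fold higher), and Lcn2, a siderophore-binding protein, 438 and 824 (1.88-fold higher). In the same list Ltf, lactoferrin, read 275 and 93.7 (2.93-fold lower) and Orm2 was at least 2.65-fold lower.

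A few genes of clotting and vessel tone differed strongly. F3, tissue factor, which starts clotting, read 164 and 805 units (4.92-fold higher). Plaur, the urokinase receptor, was under the floor without exposure and at 274 at 6 h (at least 3.52-fold higher), and Plat, tissue plasminogen activator, read 476 and 829 (1.74-fold higher). Adm, the vasodilator adrenomedullin, was under the floor and then at 285 (at least 3.67-fold higher), whereas its receptor gene Calcrl read 699 and 393 (1.78-fold lower). Edn1, the constrictor endothelin 1, read 179 and 374 (2.09-fold higher), with 1.01 on the log2 scale by a second probe set. Npr1, the natriuretic peptide receptor, read 94.7 and 225 (2.38-fold higher). Hrh2, a histamine receptor, was at 449 without exposure and under the floor in all 3 exposed pools, at 29.6, 41.1 and 43.1.

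Of 21 keratins and genes of injured epithelium compared 5 were at least 2-fold higher, and no member was lower by that much (median 0.44). The 5 were Sfn, Krt18 and Krt17, and Hbegf and Plaur, both given above. Sfn, an adaptor protein of stressed epithelia, was under the floor without exposure and at 562 units at 6 h (at least 7.23-fold higher). The paired keratins of simple epithelium, Krt8 and Krt18, read 435 and 863 (1.98-fold higher), and 206 and 540.3 (2.62-fold higher), and Krt19 884 and 1361 (1.54-fold higher). Averaged over its probe sets Krt18 was at 0.69 on the log2 scale, short of 2-fold. Krt17 read 79.9 and 189.8, by a marked probe set, and the basal cell keratin Krt5 142 and 84.6 (1.68-fold lower). Ccn1 and Ccn2, matricellular proteins that answer stretch and injury, read 231 and 614, and 606 and 1348 (2.66-fold and 2.22-fold higher), and Ankrd1, a target of the same YAP pathway, 101 and 273 (2.7-fold higher). Dsp, desmoplakin of cell junctions, read 156 and 265 (1.7-fold higher). Lox, which crosslinks collagen and elastin, read 176 and 516 (2.93-fold higher), and 1.66 on the log2 scale by its other probe set. No other of the 40 genes compared on the list of matrix proteins passed 2-fold, and Col3a1 there read 1259.9 and 743 (1.7-fold lower).

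Some of the 91 genes at least 2-fold lower are known from white blood cells. A list of 24 genes of white blood cells in general was drawn up after the values were seen, so its counts only describe it. Of 22 compared 10 were at least 2-fold lower and 21 below 0 (median -0.87). Other genes among the lowest were on none of the lists, and some of these are given further below. Ptprc, the surface phosphatase CD45 that all of these cells carry, read 331 units without exposure and 129 at 6 h (2.57-fold lower). Lsp1, an actin-binding protein, read 588 and 190.3 (3.09-fold lower), with -1.37 on the log2 scale by its other probe set, and Cd52, a small surface glycoprotein, 473 and 155 (3.05-fold lower). Tyrobp, the adaptor of myeloid and natural killer cell receptors, read 286 and 117 (2.44-fold lower), Lcp1, plastin of these cells, 669.7 and 293 (2.28-fold lower), and Gimap4, a GTPase of lymphocytes, 596 and 238 (2.5-fold lower). Coro1a, an actin regulator, was at 196 and then under the floor. Bright members pointed the same way, Laptm5 with 923 and 516 and Tmsb10 with 2042 and 1016. The exception was Vav1, at 110.3 at 6 h from under the floor, by a marked probe set, and its log2 difference was -0.36 without marked probe sets. Averaged over all their probe sets, Ptprc and Lcp1 both had log2 differences of -0.60, short of 2-fold. In pooled whole lung, fewer cells of a type and less RNA per cell cannot be told apart.

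Markers of several lineages were among the lower genes. Of 13 markers of B cells or plasma cells 3 were at least 2-fold lower, none was higher by that much and 2 lay above 0 (median -0.54). Among them Cd79a, the signal chain of the B cell receptor, read 354 and 130.0 units (2.72-fold lower), Pax5, the factor that sets B cell identity, 597 and 409.7 (1.46-fold lower), and Ms4a1, the surface marker CD20, 138 and then under the floor. Ltb, a lymphotoxin chain that lymphocytes make, was at least 3.09-fold lower, and Ccl5, a chemokine of activated T and natural killer cells, read 269 and 115 (2.34-fold lower). Of 27 T and natural killer cell markers 15, including Cd3d and Cd8a, were at or under the floor in both pools. Fscn1, the bundling protein of mature dendritic cells, read 397 and 101 (3.92-fold lower), and Plac8, a small protein of myeloid and plasmacytoid cells, 450.2 and 126 (3.56-fold lower), though the median of 11 dendritic cell markers was -0.03. Among macrophage genes Mpeg1, a pore-forming protein, read 434 and 211 (2.05-fold lower) and Csf1r, the receptor of their growth factor, 247 and 163 (1.52-fold lower), while Lpl, a lipase that macrophages and fat cells make, read 419 and 786 (1.87-fold higher). Ccr2, the receptor that brings monocytes in, was at 147 and then under the floor. The median over 18 macrophage markers was -0.02, near that of all genes, and Chil3, a secreted protein of alveolar macrophages, read 391 and 385.

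Of 10 markers of mast cells, basophils and eosinophils only Mcpt8, a basophil protease, was at least 2-fold lower, at 227 and 91.4 units, and without marked probe sets its log2 difference was -0.30. Cma1, a mast cell chymase, read 505 and 256 units (1.97-fold lower), but its log2 difference was only -0.29 by another, similarly bright probe set. Kit, the receptor mast cells need to survive, read 406 and 247 (1.64-fold lower). Gata2, on the same list, went the other way, at 231 and 413. It was the only 1 of the 10 above 0, and the list's median was -0.08. Hba-a1, an alpha globin gene of red cells, read 8195 and 8226, and Hbb-b2, a beta globin gene, 2673 and 3182. Cxcr2, a chemokine receptor of neutrophils, was under the floor and then at 151 (at least 1.94-fold higher). Of 18 neutrophil markers 6 were at or under the floor in both pools and the median of the others was -0.12.

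**Figure D5:**
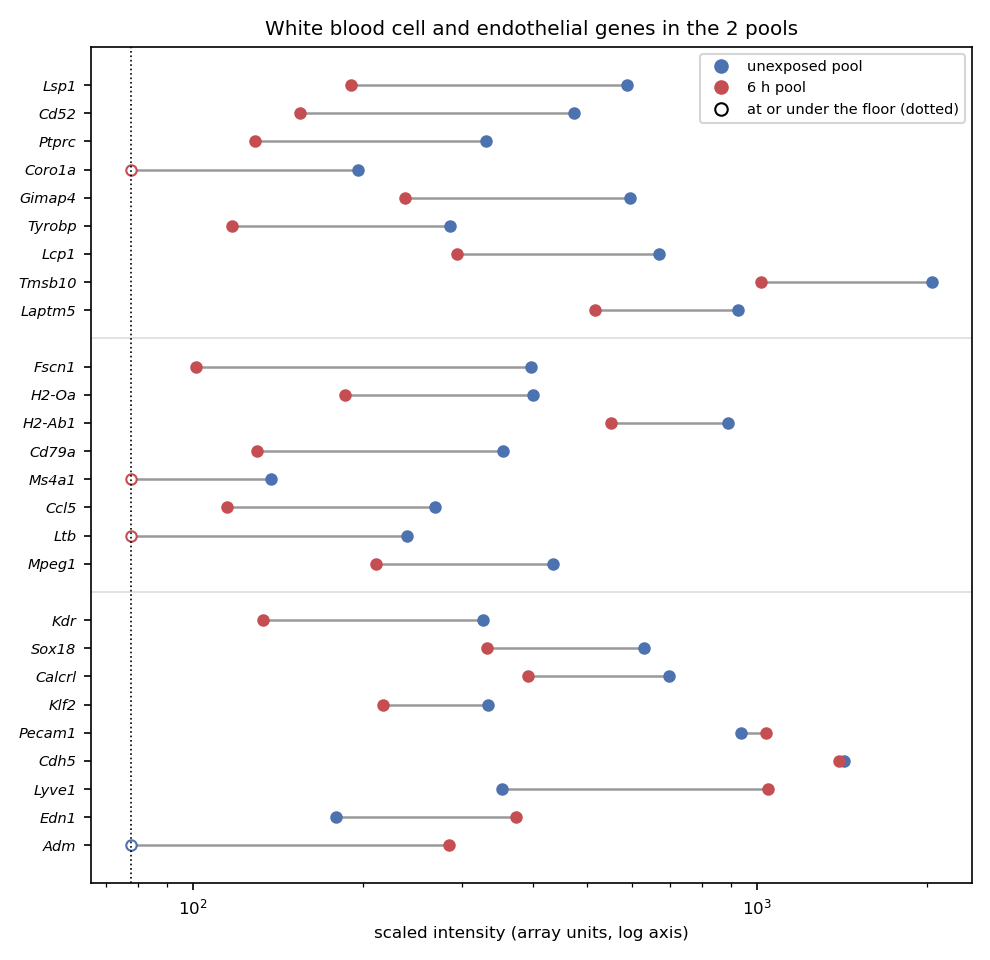
Scaled intensity in array units (log axis) of genes of all white blood cells (top), of dendritic, B, T and macrophage cells (middle) and of vessels (bottom) in the unexposed (blue) and 6 h (red) pools, 1 array each; open circles are at or under the dotted floor. The 17 white blood cell genes were picked from those lower at 6 h, and Vav1, the 1 gene of the general list that was higher, is not drawn, while the vessel genes split, with Cdh5 and Pecam1 nearly unmoved.

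Most genes of antigen presentation and of the interferon response also lay below 0. All 12 genes compared of the class II pathway lay below 0 (median -0.57), and 6 were at least 1.5-fold lower, against 6.06% of all genes. H2-Aa and H2-Ab1, the chains of the class II molecule, read 1571 and 1118, and 889.7 and 552 units, and Ctss, the cathepsin that trims its invariant chain, 617 and 384 (1.61-fold lower). All 12 genes of class I and the immunoproteasome also lay below 0 (median -0.44). The chains of the class I molecule named next were less than 1.5-fold lower. B2m read 3163 and 3038, H2-D1 2652 and 2333, and H2-K1 3162 and 2476. By its other, dimmer probe set H2-K1 had a log2 difference of 0.05. Tap1 and Tap2, the peptide transporter, were 1.46-fold and 1.49-fold lower. Of 21 interferon-stimulated genes 17 lay below 0 and 4 above it, and 2 were at least 2-fold lower (median -0.36). These 2 were Gbp2, at least 3.21-fold lower, from 249.7 to under the floor, and Irf7, given further below. Ifit3 read 156 and 105 (1.48-fold lower), and Gbp7, which is not on the list, 256 and 126 (2.04-fold lower). Both chains of the type I interferon receptor, Ifnar1 and Ifnar2, were lower too, at 151 and 96.3, and 239 and 155 (1.57-fold and 1.54-fold). By its other probe set, however, Ifnar2 had a log2 difference of only -0.05.

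Endothelial and smooth muscle markers differed little apart from single genes. Of 24 endothelial markers 2 were at least 2-fold higher and 1 lower (median -0.09). Kdr, the main VEGF receptor, read 327 and 133 units (2.46-fold lower) and its ligand Vegfa 604 and 429 (1.41-fold lower). Sox18 and Sox17, factors of vessel growth, read 630.0 and 332, and 259 and 187 (1.9-fold and 1.38-fold lower). Pecam1, a junction protein of all endothelium, read 938 and 1038. Lyve1, the hyaluronan receptor of lymphatic and some lung endothelium, read 353 and 1046 (2.96-fold higher). Smooth muscle and pericyte markers were slightly lower, 10 of 11 below 0 and none past 2-fold (median -0.25), with Acta2, smooth muscle actin, at 1131 and 784. Tcf21, a factor of lung fibroblasts, was at 180.0 and then just under the floor.

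Some skeletal muscle transcripts were higher. Acta1, the skeletal muscle actin, read 7.25 units without exposure, far under the floor, and 611 at 6 h (at least 7.86-fold higher). Myl1, a fast muscle light chain, was at 65.4 and 275 (at least 3.54-fold higher), Myh1, a fast muscle myosin, at 11.5 and 115, Tnnt3, fast troponin T, at 33.1 and 106, and Atp2a1, the calcium pump of fast muscle, at 147 and 293. Mylpf, Myh2, Myh4 and Tnni2 were at or under the floor in both pools, and Ckm, muscle creatine kinase, read 119 and 156. Heart genes did not share this: 11 of 12 lay below 0, with Myl7, an atrial light chain, at 975 and 729 and Myh6 at 455 and 379. The summed level of 16 fast muscle genes was 1602 and 2916 units, and of 15 heart genes 6279 and 5129. These 2 lists were drawn up after the values were seen. The part of neighbouring muscle in any other result was not tested.

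Genes of the fluid transport that keeps air spaces dry differed moderately. Atp1b1, a subunit of the sodium pump, read 274 and 435 units (1.59-fold higher), Aqp1, the water channel of capillaries, 709 and 980.1 (1.38-fold higher), and Nedd4l, which removes sodium channels from the surface, 223 and 381 (1.71-fold higher). Aqp4, the water channel of airway epithelium, read 131 and 81.1 (1.61-fold lower). Of 20 genes of this list only Sgk1 was at least 2-fold higher.

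Other signalling lists were near the median of all genes, with a few members apart. Of 12 MAP kinase phosphatases and feedback inhibitors 2 were at least 2-fold higher and 1 lower. Dusp16, a phosphatase of the kinase JNK, read 113 and 231 units (2.04-fold higher), and Rgs2, which ends G protein signals, 328 and 148 (2.22-fold lower). Of 28 growth factor ligands 4 were at least 2-fold higher. Besides Hbegf, Ccn1 and Ccn2 this was Bdnf, a neurotrophin, at 179 and 372. None of 19 genes of the TGF-beta and BMP response passed 2-fold (median -0.00), and Id1 and Id3, targets of BMP signals, lay at 0.54 and -0.40. None of 23 genes of the NF-kappaB pathway passed 2-fold either (median 0.03). Its members pointed to both sides, with Icam1, an adhesion molecule it induces, at 391 and 681 (1.74-fold higher) and Vcam1, another, at 236 and 171 (1.37-fold lower).

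Apart from Fas, given above, which is not on the list, none of 27 apoptosis regulators passed 2-fold, 18 lay below 0, and the median was -0.16. The death inhibitor Bcl2l1 read 368 and 687 units (1.87-fold higher), the related Mcl1 751 and 899, and Casp6, an executioner caspase, 188 and 115 (1.64-fold lower).

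Energy metabolism differed at a few control points. Of 27 genes of glycolysis and hypoxia 20 lay above 0, and Adm, given above, was the 1 past 2-fold. Hk2, the inducible hexokinase, read 119.6 and 218 units (1.82-fold higher), and Pfkfb3, which makes the activator of phosphofructokinase, 149 and 248 (1.66-fold higher). Slc2a1, the general glucose transporter, was under the floor without exposure and at 130.4 at 6 h (at least 1.68-fold higher). Lpin1, which makes diacylglycerol and coactivates fat oxidation, read 129 and 227 (1.76-fold higher), and Odc1, the first enzyme of polyamine synthesis, 172 and 292 (1.7-fold higher). None of 15 cytochrome P450 genes passed 2-fold (median -0.06), and none of 9 genes of sterol synthesis, where Srebf1, a factor of lipid synthesis, read 430.5 and 253 (1.7-fold lower).

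Machinery around protein quality and nuclear traffic was on the higher side in sign more than in size. Of 19 nuclear transport genes 16 lay above 0, but only Xpo1, the main export receptor, was past 2-fold, and it was lower, from 162 units to under the floor (at least 2.08-fold lower), or by -0.53 on the log2 scale averaged over its probe sets. Of 26 genes of the ubiquitin system 20 lay above 0 (median 0.14), with Ube2k, a conjugating enzyme, at 106 and 198 (1.87-fold higher). The nucleolar genes Nolc1 and Wdr43, which serve ribosome assembly, read 79.6 and 129, and 110.0 and 192 (1.62-fold and 1.74-fold higher), while none of 23 genes of that list passed 2-fold. Cirbp, an RNA-binding protein induced by cold and stress, read 199 and 437 (2.19-fold higher).

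No member of the lists of adhesion molecules, epithelial junctions, metalloproteinases and complement passed 2-fold. The medians were 0.00 over 24 adhesion molecules, 0.04 over 23 genes of epithelial junctions, -0.02 over 13 metalloproteinases and inhibitors and -0.12 over 10 complement genes. Timp3, a matrix-bound inhibitor of metalloproteinases, read 1218 and 1985 units (1.63-fold higher), and Cldn1, a claudin of tight junctions, 121 and 84.3 (1.44-fold lower). Alox12, a lipoxygenase, read 92.3 and 187 (2.03-fold higher), and Ltb4r1, the leukotriene B4 receptor of white blood cells, was at 155 and then under the floor.

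Several large single differences lay outside these groups. Cacna2d3, a subunit of voltage-gated calcium channels, read 942 and 4004 units (4.25-fold higher). Map3k6, a kinase of stress signalling, was under the floor without exposure and at 432 at 6 h (at least 5.56-fold higher). Plxna2, a semaphorin receptor, read 92.2 and 305 (3.31-fold higher), Tinagl1, a matrix protein, 242 and 735 (3.04-fold higher), and Nampt, which makes a precursor of NAD, 118 and 333 (2.81-fold higher). Cdh4, a cadherin, read 382 and 1312 by its main probe set but -0.33 on the log2 scale by the other. On the lower side Snn, stannin, a small membrane protein, read 2046 and 637 units (3.21-fold lower). Cyth2, an exchange factor for small GTPases, read 468 without exposure and was under the floor at 6 h alone, with 496 and 505 units at 18 and 90 h. Lhx6, a homeobox factor, read 699 without exposure and 118, 119 and 123 at 6, 18 and 90 h.

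The 3 exposed pools share their unexposed array, so the levels are set side by side as a description and no fold is given between them. Mt2 read 293, 3956, 1774 and 261 units in the unexposed, 6, 18 and 90 h pools, and Gclc 213, 1496, 501 and 255. Both were thus high at 6 h, lower at 18 h and near the unexposed value at 90 h. Fkbp5 read 108, 726, 149 and 73.9 and Zbtb16 213, 891, 101 and 86.7, so that these steroid targets were high in the 6 h pool alone. Hspa1b read 147, 924, 789 and 306, and Hbegf 218, 554, 577 and 246, still high at 18 h. Among genes of white blood cells Ptprc read 331, 129, 162 and 345, Cd52 473, 155, 315 and 486, and Tyrobp 286, 117, 199 and 403. These 3 were lowest at 6 h, and at 90 h each was at or above its unexposed level.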

How the data were processed

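Total RNA from pooled whole lungs was read on 4 Affymetrix MG_U74Av2 arrays, 2 of which are compared here. The deposited table, per the file headers, holds 1 linear intensity for each of 12488 probe sets and array, and which software and scaling lie behind it is not given in the sources used here. Its 66 control probe sets were left out. Of the other 12422, GEO's platform annotation gave 1 symbol to 10833, several to 396 and none to 1193; checked against RefSeq, 0 symbols changed. Each array was scaled to a common mean after trimming 2% at each end (factors 1.07 unexposed and 0.992 at 6 h). The floor was 77.7 units, percentile 40 over all scaled intensities, and lower ones were raised to it before log2. A gene was its probe set with the highest mean. The number of arrays, 1 a group, limits the precision, and no test was made; the 2-fold threshold describes 2 arrays. After scaling, 9 spike-in probe sets had a median log2 difference of -0.11, and the ratio of 3' to 5' probe sets of Gapdh was 1.21 and 1.16. Calculations used python 3.11.15, numpy 2.4.6 and pandas 2.3.3 and were tested on simulated data.

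The gene lists (62 of pathways, 23 of markers) and the genes to follow were chosen with earlier results of these data known, and 4 lists were added after the values were seen. Named genes were drawn from the 30 highest and 30 lowest and from the 10 largest bounds each way. They were also drawn from up to 10 members of each list at least 1.5-fold away, and from their family members or markers of a tissue. Not all of these are named above, and many of the 30 lowest are among those left out. Any other gene was chosen after its values were seen. The alternatives were other scalings, floors, a pseudocount of 50 units, averaging of probe sets and leaving out marked ones.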

Additional observations from a re-analysis of the deposited data

Results flagged for a closer look

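Probe sets that no comparison by gene used, because the annotation gave them no symbol or several, also held signal. Of 1589 such probe sets 864 could be compared, and 18 of them (2.08%) were at least 2-fold higher and 20 (2.31%) at least 2-fold lower at 6 h than in the unexposed pool. The log2 differences reached 2.16 and -2.50. These shares lie beside 2.17% and 1.51% over named genes, and the transcripts behind them are not named here.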

How the results depend on the processing

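With 1 array a group nothing measures the spread between animals, and depth has its counterpart in signal over the floor, which left 2207 of 8251 genes without a comparison. No paired analysis was possible because each group has 1 array. The 131 higher genes became 93 to 173 and the 91 lower genes 47 to 130 over 8 alternatives; the count of 47 came with the floor at the 60th percentile, which leaves fewer genes to compare. Without scaling the median of all genes was 0.07 in place of -0.04, the higher share of the genes past 2-fold was 69.0% in place of 59.0%, all 131 higher genes and 71 of the 91 lower ones were still past 2-fold, and 25 list medians within 0.1 of 0 changed sign. The 17 lists with a median at least 0.3 from 0 kept its sign under all 8 alternatives. The median of the EGF receptor and ERK list was 0.83 with probe sets averaged. Of 107 named genes past 2-fold, 59 were past it under every alternative that compared them. With probe sets averaged Hspa4 was at 0.055, and without marked probe sets Cd36 was at 0.65, both of the opposite sign, and the cause was not tested. With probe sets averaged Atf3, Cd36, Cdh4, Cox4i1, Dusp16, Eef1b2, Egr1, Fos, Hspb8, Il4ra, Krt17, Krt18, Lcp1, Mcpt8, Mpeg1, Ptprc and Xpo1 did not reach 2-fold. With the floor at the 60th percentile 28 genes did not reach it, among them Gclm (0.90), Plaur (0.99), Pdk4 (0.88), Fas (0.71), Gadd45a (0.67), Coro1a (-0.51), Ltb (-0.80) and Gbp2 (-0.86), as a higher floor lowers a bound by construction.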

Other observations

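Gene families grouped by symbol after the values were seen gave further patterns. All 12 Sox genes compared, transcription factors of cell identity, lay below 0 at 6 h (median -0.39), from Sox4, which read 212 and 95.1 units, to Sox6 at 106 and 103. All 7 interferon regulatory factors compared also lay below 0 (median -0.52), among them Irf8, a factor of myeloid and B cells, at 269 and 135, and Irf7 at 157 and then under the floor. Of 19 Hox genes 5 lay above 0 (median -0.26), and of 31 RAB GTPases, which direct vesicles, 21 did (median 0.20), while none in either family passed 2-fold. Over all genes compared 45.4% lay above 0.

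Of the 33 genes at least 2-fold higher only as a bound, 6 were listed at 0 in the unexposed pool: Crct1, Dhrs1, Emc10, Klk1b22, Muc3 and Tmem199. Of the 18 lower only as a bound, Mrpl50 was listed at 0 at 6 h.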
